A study of Mus musculus with 15 samples.

Results

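Serpins are a family of proteins that share a fold, most of which trap a serine or cysteine protease by offering it a reactive loop and then holding it in an inactive complex. Secreted serpins control plasminogen activation, blood clotting, complement and inflammation, whereas the B group works mainly inside cells. A few members have lost protease inhibition and serve other roles, among them the collagen chaperone Serpinh1. The members described here were all non-control microarray probes whose RefSeq accession maps to a gene symbol that starts with Serpin. They were 75 probes for 60 genes, out of 55681 probes on the array and 21368 named genes.

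RNA of mouse embryonic stem cells was measured on 15 single-colour Agilent arrays, 3 for each of 5 groups. All groups except the wild type lacked the gene that the labels call Nat1. Its current symbol is Eif4g2, and its product resembles part of eIF4G, a scaffold protein of translation initiation. Map3k3 cells carried a doxycycline (Dox)-inducible transgene for Map3k3, a kinase that acts upstream of MAP kinases, on the null background and were grown with Dox. The same Map3k3 cells were also grown without Dox. EGFP cells carried an inducible EGFP transgene on the null background and received Dox, so they share the null state and the drug with Map3k3 cells grown with Dox. Null cells had no transgene, and wild-type cells had neither the null mutation nor a transgene. All cells grew on gelatin-coated plates in stem cell medium. The Dox dose, its duration and the number of clones behind each line are not given in the sources used here. Separate cultures are not stated for the 3 arrays of a group, so the p-values reflect the spread among these arrays alone, which may be technical.

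Each value below is a log2 processed signal minus the 75th percentile of its array, a scale on which 1 unit is a doubling of signal. That percentile was 495 to 615 signal units, and the share of probes well above background was between 42.7 and 53.9% per array. The Eif4g2 probe averaged 1.71 ± 0.20 in null cells and 4.31 ± 0.15 in wild-type cells (SD, n = 3 each), a log2 difference of -2.60 (SE 0.14, limma adjusted p = 2.32e-08). Its position relative to the deleted part is not known here. Map3k3 itself averaged -0.50 ± 0.15 in Dox-treated Map3k3 cells, -0.69 ± 0.22 in untreated ones and -0.77 ± 0.10 in EGFP cells (SD, n = 3 each), and was not called in either comparison (limma adjusted p = 0.236 and 0.0860). Whether its probe reads the transgene transcript is not known here. Of the stem cell markers, 10 of 10 were well above background on every array. Their summed signal was 911 to 961 times the 75th percentile in Map3k3 cells with Dox, 1160 to 1230 without Dox, 1180 to 1210 in EGFP cells, 1210 to 1260 in null cells and 726 to 780 in wild-type cells.

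A gene was tested where some group had a probe well above background on each of its 3 arrays, which held for 27 of the 60 serpin genes. It was called at an adjusted p under 0.05 and a difference of at least 1.5-fold. By their letters, which mark the branches of the family, 9 of 23 A genes, 11 of 27 B genes and 7 of the 10 genes of the other letters were tested. Of the A genes, 22 lie on chromosome 12, and the B genes lie on chromosomes 1 (12 genes, 3 tested) and 13 (15 genes, 8 tested). The 13 serpins well above background on all 15 arrays included Serpina11, Serpina3b, Serpina3h, Serpinb1a, Serpinb6a, Serpinb6c, Serpinb6d, Serpinb6e, Serpinb8, Serping1, Serpinh1 and Serpini1. The other 14 tested genes had at least 1 array that was not well above background. Several A and B genes are near-identical copies, and whether their probes tell the copies apart was not tested.

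In Map3k3 cells with Dox the collagen chaperone Serpinh1 rose, while Serpina3i and Serpinb3c fell. Against the same cells without Dox, 5 serpins were called higher and 2 lower, 7 of 27 (25.9%), where 17.9% of all 14441 tested genes were called. Of all tested genes 12.3% were called higher and 5.58% lower. Against EGFP cells, 6 serpins were called higher and 2 lower, 8 of 27 (29.6%), where 18.0% of all genes were called, 12.4% higher and 5.64% lower. Both comparisons use the same arrays of Map3k3 cells with Dox. The median log2 difference of the 27 serpins was 0.13 against cells without Dox, beside -0.07 for all genes, and 0.02 against EGFP cells, beside -0.09 for all genes. Arrays of the 2 groups were fully separate in 11 serpins (40.7%) against cells without Dox, beside 50.1% of all genes, and in 9 (33.3%) against EGFP cells, beside 49.3%. Serpinh1 and Serpinf1 were among those that rose in both comparisons, and Serpina3i and Serpinb3c fell in both. Serpinb6b and Serpinb9 were also called higher in both, but no array of these groups was well above background for them, so these are differences between background-level signals.

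**Figure D1:**
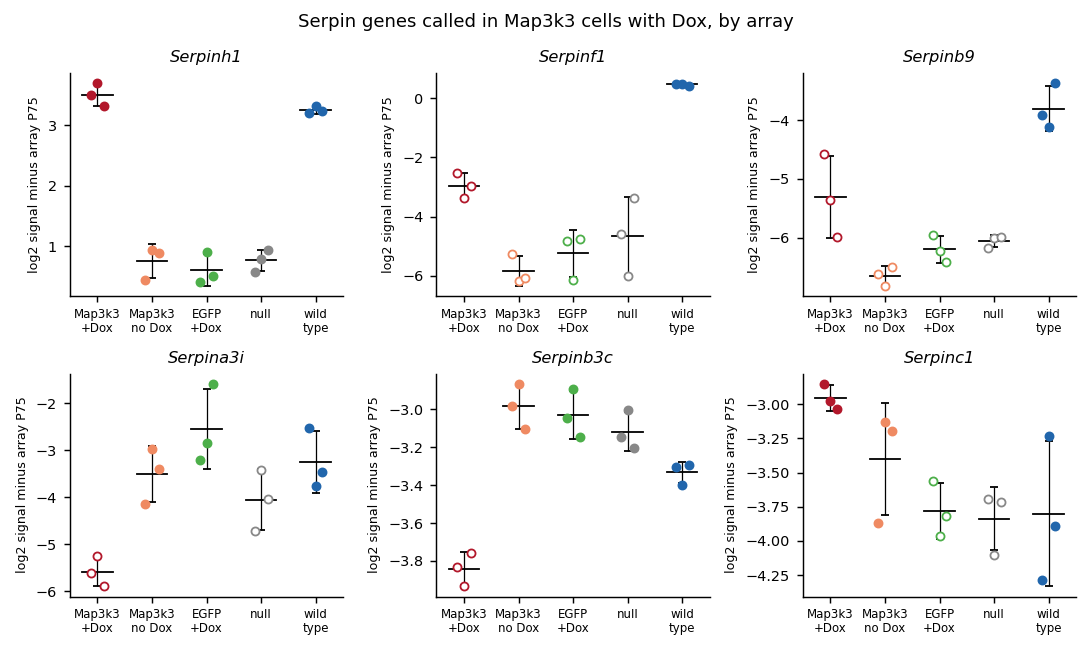
Serpin genes called in Map3k3 cells with Dox, by array. Each point is 1 array (y axis: log2 signal minus the array's 75th percentile), lines and bars are the mean and SD of 3 arrays, and open points mark groups not well above background on all 3 arrays. Serpinh1 sits high in Map3k3 cells with Dox and in wild-type cells and low in the other groups, while Serpina3i and Serpinb3c are lowest in Map3k3 cells with Dox.

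Serpinh1, also called Hsp47, binds collagen in the endoplasmic reticulum and is needed for its folding and export. It had log2 signals of 3.50, 3.69 and 3.31 in Map3k3 cells with Dox, against 0.45, 0.95 and 0.90 in those without Dox and 0.41, 0.91 and 0.52 in EGFP cells. Null cells had 0.59, 0.79 and 0.94, against 3.20, 3.32 and 3.24 in wild-type cells. The arrays fell into a high pair of groups and a low trio with no overlap between them. Serpinh1 rose 6.67-fold against cells without Dox (log2 difference 2.74, SE 0.16, limma adjusted p = 1.36e-07) and 7.41-fold against EGFP cells (adjusted p = 8.66e-08). It fell 5.59-fold in null against wild-type cells (log2 difference -2.48, limma adjusted p = 1.05e-07). Map3k3 cells with Dox and wild-type cells differed by 0.25 on the log2 scale, which was not called, with a 95% interval of -0.11 to 0.60.

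Serpinf1, pigment epithelium-derived factor, is a secreted serpin that inhibits no protease and restrains vessel growth. On its brighter probe the log2 signals were -2.51, -3.37 and -2.97 in Map3k3 cells with Dox, against -5.26, -6.18 and -6.08 in those without Dox. EGFP cells had -4.81, -6.15 and -4.75 on it. Null cells had -4.59, -6.00 and -3.38, against 0.48, 0.49 and 0.43 in wild-type cells. It was well above background on 2 arrays of Map3k3 cells with Dox, on none without Dox or with EGFP, on 1 null array and on 3 wild-type arrays. Serpinf1 thus passed the filter through its wild-type arrays alone, which favours a lower call of other groups against wild-type cells. Serpinf1 rose at least 3.07-fold against cells without Dox (log2 difference 2.89, SE 0.56, limma adjusted p = 0.00168) and at least 2.24-fold against EGFP cells (adjusted p = 0.00665). "At least" here and below means that the dim group's arrays were raised to the lowest signal that was well above background on them. It fell at least 19.1-fold in null against wild-type cells (log2 difference -5.12, limma adjusted p = 7.61e-06). It was at least 10.4-fold lower in Map3k3 cells with Dox than in wild-type cells (log2 difference -3.42, limma adjusted p = 2.08e-04). With the slide as a block that value was -2.68 (adjusted p = 0.0605). The second Serpinf1 probe was well above background only in wild-type cells and was called in the same directions in these 4 comparisons. Its calls against cells without Dox and against EGFP cells are therefore differences between background-level signals and do not show a rise.

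The 250 bases before the start of Serpinh1 and Serpinf1, which rose, and of Serpina3i and Serpinb3c, which fell, are printed here so that the start regions of genes moving in opposite directions can be set side by side. They are from RefSeq's GRCm38.p6 annotation, read 5' to 3' on the gene's strand, with capitals marking matches to the searched motifs. These windows lie at chr7:99353240-99353489 (minus strand, Serpinh1), chr11:75422624-75422873 (minus strand, Serpinf1), chr12:104262872-104263121 (plus strand, Serpina3i) and chr1:107278372-107278621 (minus strand, Serpinb3c).
Serpinh1: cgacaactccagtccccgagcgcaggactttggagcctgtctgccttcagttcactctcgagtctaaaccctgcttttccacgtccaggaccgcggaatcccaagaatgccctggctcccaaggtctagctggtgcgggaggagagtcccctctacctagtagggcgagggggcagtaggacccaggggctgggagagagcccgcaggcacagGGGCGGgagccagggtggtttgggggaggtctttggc
Serpinf1: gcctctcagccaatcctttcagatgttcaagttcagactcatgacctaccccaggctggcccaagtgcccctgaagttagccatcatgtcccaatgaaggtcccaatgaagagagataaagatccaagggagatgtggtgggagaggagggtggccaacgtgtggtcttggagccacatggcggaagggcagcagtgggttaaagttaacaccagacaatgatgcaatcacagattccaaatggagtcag
Serpina3i: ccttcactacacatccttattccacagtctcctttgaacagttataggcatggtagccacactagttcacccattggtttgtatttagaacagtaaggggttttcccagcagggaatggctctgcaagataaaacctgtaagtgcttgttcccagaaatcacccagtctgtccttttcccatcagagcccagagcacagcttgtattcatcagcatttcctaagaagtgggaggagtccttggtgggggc
Serpinb3c: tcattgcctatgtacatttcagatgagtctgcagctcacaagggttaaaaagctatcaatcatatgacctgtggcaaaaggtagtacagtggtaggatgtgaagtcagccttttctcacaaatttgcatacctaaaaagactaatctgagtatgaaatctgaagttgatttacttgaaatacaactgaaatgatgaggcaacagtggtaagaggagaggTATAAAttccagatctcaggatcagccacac
Searched on both strands were the AP-1 motif TGANTCA, the GC box GGGCGG, the TATA box TATAAA and the cAMP response element TGACGTCA. Serpinh1 held a GC box beginning 37 bases before the start and Serpinb3c a TATA box beginning 31 bases before it, while Serpinf1 and Serpina3i held none of the 4. Among the 58 windows of 49 serpin genes, 11 (19.0%) held the AP-1 motif, 7 (12.1%) the GC box, 17 (29.3%) the TATA box and 0 the cAMP response element. Among all 32851 windows of the same length, the shares were 6.75%, 32.7%, 12.4% and 1.55%. The serpins with an AP-1 match were Serpina1a, Serpina1c, Serpina1d, Serpinb10, Serpinb11, Serpinb12, Serpinb2, Serpinb5, Serpinb7 and Serpinb8, of which only Serpinb5 and Serpinb8 were tested. A match is a string of letters in a window, and windows of the clustered copies are related.

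Serpina3i and Serpinb3c fell in Map3k3 cells with Dox. Serpina3i is one of the mouse copies that correspond to human alpha-1-antichymotrypsin. Its log2 signals were -5.60, -5.25 and -5.88 in Map3k3 cells with Dox, against -4.14, -2.97 and -3.40 in those without Dox and -3.20, -2.85 and -1.59 in EGFP cells. Null cells had -4.72, -3.42 and -4.03, against -2.52, -3.76 and -3.46 in wild-type cells. No array of Map3k3 cells with Dox was well above background, and all of them lay below every other array. Relative to cells without Dox, Serpina3i fell at least 1.32-fold (log2 difference -2.08, SE 0.48, limma adjusted p = 0.00471) and relative to EGFP cells at least 2.57-fold (-3.03, adjusted p = 3.71e-04). With the array row on the slide as a block, the first of these was -1.61 (adjusted p = 0.0510). Its other probe did not pass the filter: it was well above background on 3 arrays and ranged from -6.87 to 0.14, the highest value being that of null replicate 2.

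Serpinb3c belongs to the mouse genes related to the human squamous cell carcinoma antigens. Its log2 signals were -3.83, -3.93 and -3.76 in Map3k3 cells with Dox, against -2.99, -2.86 and -3.10 in those without Dox and -3.05, -2.89 and -3.15 in EGFP cells. Null cells had -3.15, -3.0 and -3.20, against -3.30, -3.40 and -3.30 in wild-type cells. The groups with low and high values did not overlap, though the difference was small. Its fall relative to cells without Dox was at least 1.55-fold (log2 difference -0.86, SE 0.09, limma adjusted p = 1.33e-05) and relative to EGFP cells at least 1.5-fold (-0.81, adjusted p = 1.95e-05). Both calls ended with another background correction and with a 2-fold minimum.

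Serpinc1, antithrombin, inhibits thrombin and factor Xa and is made mainly by the liver. It had log2 signals of -2.85, -2.98 and -3.03 in Map3k3 cells with Dox, against -3.87, -3.13 and -3.19 in those without Dox, -3.56, -3.96 and -3.82 in EGFP cells and -4.28, -3.23 and -3.89 in wild-type cells. The 3 arrays with Dox were close together and above all of these. It rose at least 1.78-fold against EGFP cells (log2 difference 0.83, limma adjusted p = 0.0209) and 1.80-fold against wild-type cells (0.85, adjusted p = 0.0116). The difference from cells without Dox, 0.45, was not called (limma adjusted p = 0.182). The call against wild-type cells ended with the slide as a block (0.79, adjusted p = 0.220), with normexp background correction (0.34), with a 2-fold minimum and without wild-type replicate 1 (0.61, adjusted p = 0.0561), and that against EGFP cells in 6 of 18 alternative settings, among them those without Map3k3 Dox replicate 1, EGFP replicate 2 or EGFP replicate 3. The 8 hepatocyte markers summed to 5.33 to 5.49 times the 75th percentile in Map3k3 cells with Dox, 6.00 to 6.45 without Dox, 5.82 to 6.20 in EGFP cells, 6.37 to 6.73 in null cells and 6.02 to 6.16 in wild-type cells, and Alb, Ttr and Apoa1 were well above background on no array of any group.

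Serpinb6b and Serpinb9 were called higher in Map3k3 cells with Dox although no array of the groups compared was well above background, so no fold is given and the calls do not show that the genes rose. Both had passed the filter through their wild-type arrays alone. Serpinb9 inhibits granzyme B, and Serpinb6b is a copy of the intracellular inhibitor Serpinb6a. For Serpinb9 the log2 signals were -4.58, -5.36 and -5.98 in Map3k3 cells with Dox, against -6.61, -6.82 and -6.50 in those without Dox and -5.95, -6.22 and -6.40 in EGFP cells. The arrays overlapped with EGFP cells only. Serpinb6b had -5.26, -4.01 and -4.58 in Map3k3 cells with Dox, against -5.45, -5.42 and -6.20 in those without Dox and -5.12, -6.00 and -6.39 in EGFP cells, again overlapping with EGFP cells only. The log2 differences from cells without Dox were 1.34 for Serpinb9 (limma adjusted p = 0.00323) and 1.07 for Serpinb6b (adjusted p = 0.0293). From EGFP cells they were 0.88 (limma adjusted p = 0.0279) and 1.22 (adjusted p = 0.0157). The Serpinb9 call against cells without Dox ended with normexp background correction (0.32, adjusted p = 0.00978, under the fold minimum) and with quantile normalization (0.62, adjusted p = 0.229). With normexp the other 3 of these calls ended too, at differences of 0.06 to 0.14. With the array row as a block the Serpinb6b difference from cells without Dox was 0.47 (adjusted p = 0.297), and each call against EGFP cells ended when Map3k3 Dox replicate 2 or EGFP replicate 3 was left out. The Serpinb9 call against EGFP cells also ended without Map3k3 Dox replicate 1 (0.52, adjusted p = 0.102) or EGFP replicate 2. The Serpinb6b call against cells without Dox ended without Map3k3 Dox replicate 2 (0.77, adjusted p = 0.114) or 3, or replicate 3 of the cells without Dox. The 8 leukocyte markers summed to 22.7 to 26.6 in Map3k3 cells with Dox, 29.2 to 31.6 without Dox, 28.9 to 32.9 in EGFP cells, 28.2 to 32.8 in null cells and 16.6 to 18.8 in wild-type cells, with Ptprc, which marks all leukocytes, on no array above background.

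Serpinb5, maspin, is an intracellular serpin of epithelia that inhibits no known protease. Its log2 signals were -3.51, -5.32 and -3.19 in Map3k3 cells with Dox, against -5.14, -6.85 and -4.59 in those without Dox and -5.94, -6.17 and -4.15 in EGFP cells. Replicate 2 was the lowest in each of these groups, and the groups overlapped. The log2 differences of 1.52 from cells without Dox and 1.41 from EGFP cells were not called (limma adjusted p = 0.153 and 0.182). With the replicate number as a block, which pairs arrays of these groups, both were called (adjusted p = 0.0237 and 0.0311).

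Slides and array rows were not shared evenly. Map3k3 Dox replicate 1 shared a slide row with the 3 arrays without Dox, and replicates 2 and 3 shared one with EGFP replicates 1 and 2. Within the first row the log2 differences, Map3k3 with Dox minus without, were 2.74 for Serpinh1, 3.33 for Serpinf1, -2.10 for Serpina3i and -0.85 for Serpinb3c. Within the second row the differences from EGFP cells were 2.84, 2.31, -2.54 and -0.88 for the same genes. The signs of these 4 genes matched those over all arrays. This had to be so, since the arrays of the groups compared did not overlap for any of the 4. An effect of slide or row was therefore not tested by these values.

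Markers of other cell types also differed in Map3k3 cells with Dox. The 11 trophoblast markers summed to 339 to 403 times the 75th percentile in Map3k3 cells with Dox, against 12.1 to 23.7 without Dox and 11.1 to 23.5 in EGFP cells. Of the 10 of them tested, 8 rose and none fell against cells without Dox. Of all tested genes, 12.3% were called higher and 5.58% lower in that comparison. Each sum is weighted to its brightest genes, here Krt18, with a mean log2 signal of 8.28 with Dox and 3.31 without. Summed signal of the 12 endoderm markers was 296 to 352 with Dox, against 179 to 195 without Dox and 188 to 195 in EGFP cells. The brightest of them, Sparc, averaged 8.07 with Dox and 6.83 without. Of the 12, 8 rose and 2, Lama1 and Sox7, fell against cells without Dox. Sox17 had passed the filter through the arrays with Dox alone. For the 12 fibroblast markers the summed signal was 11.6 to 14.6, against 5.33 to 6.78 without Dox and 5.50 to 6.12 in EGFP cells. Of the 9 tested of these, 4 rose and 1, Thy1, fell against cells without Dox. Postn, Dcn and Lum were on no array above background in any of the 3 groups. The 9 keratinocyte markers summed to 17.6 to 21.3 with Dox, against 10.4 to 12.9 without Dox and 11.3 to 11.6 in EGFP cells. Of the 7 tested, 4 rose and none fell against cells without Dox. The part of these cell types in the serpin differences was not tested. In bulk RNA such as this, fewer cells of a type and less RNA per cell cannot be told apart.

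**Figure D2:**
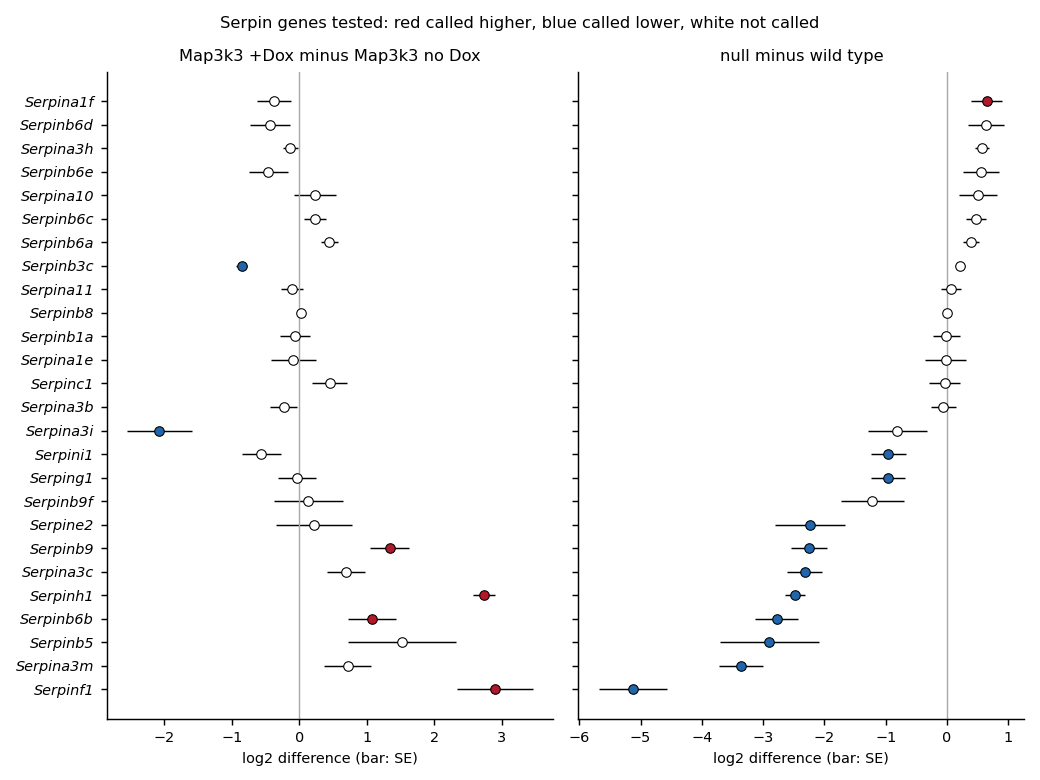
Log2 differences of tested serpin genes for Map3k3 cells with Dox minus those without Dox (left) and for null minus wild-type cells (right). Points are limma estimates, bars their SE, red points were called higher, blue points lower and white points neither. Serpinh1 and Serpinf1 lie far to the right of zero on the left panel and far to the left on the right panel.

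In null against wild-type cells 11 of the 27 tested serpins fell, 1 rose and 15 were not called. The 12 calls make 44.4%, where 37.7% of all tested genes were called, 20.5% lower and 17.2% higher. Of the 27, 7 had passed the filter through their wild-type arrays alone, which favours a lower call, and 6 of the 11 falls were theirs. They were Serpina3c, Serpina3m, Serpinb5, Serpinb6b, Serpinb9, Serpinb9f and Serpinf1. Among the other 20 serpins, 5 fell and 1 rose. The median log2 difference was -0.06 for the serpins and 0.07 for all genes. Null and wild-type arrays were fully separate in 17 of the 27 serpins (63%), beside 71.9% of all genes. The 11 that fell included Serpina3c, Serpina3m, Serpinb5, Serpinb6b, Serpinb9, Serpine2, Serpinf1, Serping1, Serpinh1 and Serpini1. In 8 of the 12 calls at least 1 array of the lower group was near background, so that only a bound can be given. Null and wild-type arrays shared a slide but not a row of it.

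Serpine2, protease nexin 1, inhibits thrombin and plasminogen activators at cell surfaces. It had log2 signals of -3.44, -3.45 and -4.66 in null cells, against -1.80, -1.46 and -1.60 in wild-type cells. Map3k3 cells with Dox had -4.17, -2.51 and -4.47, those without Dox -4.28, -3.72 and -3.77, and EGFP cells -5.48, -3.50 and -5.05. The wild-type arrays lay above all others, and the other groups overlapped among themselves. Serpine2 fell at least 4.03-fold in null against wild-type cells (log2 difference -2.24, SE 0.56, limma adjusted p = 0.00433). Map3k3 cells with Dox were at least 3.74-fold below wild-type cells (log2 difference -2.10, limma adjusted p = 0.00635), a call that ended with the slide as a block (adjusted p = 0.0664).

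Serpini1, neuroserpin, inhibits tissue plasminogen activator and is best known from neurons. Its log2 signals were 0.21, 0.76 and -0.23 in null cells, against 1.1, 1.24 and 1.28 in wild-type cells, without overlap. Those of Map3k3 cells with Dox were -0.19, 0.18 and -0.51, of cells without Dox 0.31, 0.85 and 0.01, and of EGFP cells 0.11, 0.83 and 0.18. It fell 1.94-fold in null against wild-type cells (log2 difference -0.96, SE 0.29, limma adjusted p = 0.0117). In Map3k3 cells with Dox against wild-type cells it fell 2.60-fold (log2 difference -1.38, adjusted p = 0.00120). With the array row as a block the null difference was -1.12 (adjusted p = 0.0525), and without null replicate 3 it was -0.72 (adjusted p = 0.0541). A second probe gave log2 differences of -1.06 in null and -1.57 in Map3k3 cells with Dox against wild-type cells for Serpini1.

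Serping1, the C1 inhibitor, restrains the complement and contact systems. It had log2 signals of -0.46, -1.15 and -0.23 in null cells, against 0.29, 0.33 and 0.41 in wild-type cells. Map3k3 cells with Dox had -0.40, -0.90 and -0.53, those without Dox -0.36, -1.02 and -0.35, and EGFP cells -0.27, -1.11 and -0.28. Replicate 2 was the lowest array in all 4 groups on the null background, while it was the highest for Serpini1. Serping1 fell 1.94-fold in null against wild-type cells (log2 difference -0.96, SE 0.28, limma adjusted p = 0.0102) and by the same fold in Map3k3 cells with Dox (adjusted p = 0.0103). With the array row as a block the null difference was -0.60 (adjusted p = 0.242), and that of Map3k3 cells with Dox -0.72 (adjusted p = 0.0932). With the slide as a block the difference of Map3k3 cells with Dox was -0.55 (adjusted p = 0.427). A second Serping1 probe was called in null cells (-1.16, adjusted p = 0.0346) but not in Map3k3 cells with Dox (-0.90, adjusted p = 0.0936) against wild-type cells.

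**Figure D3:**
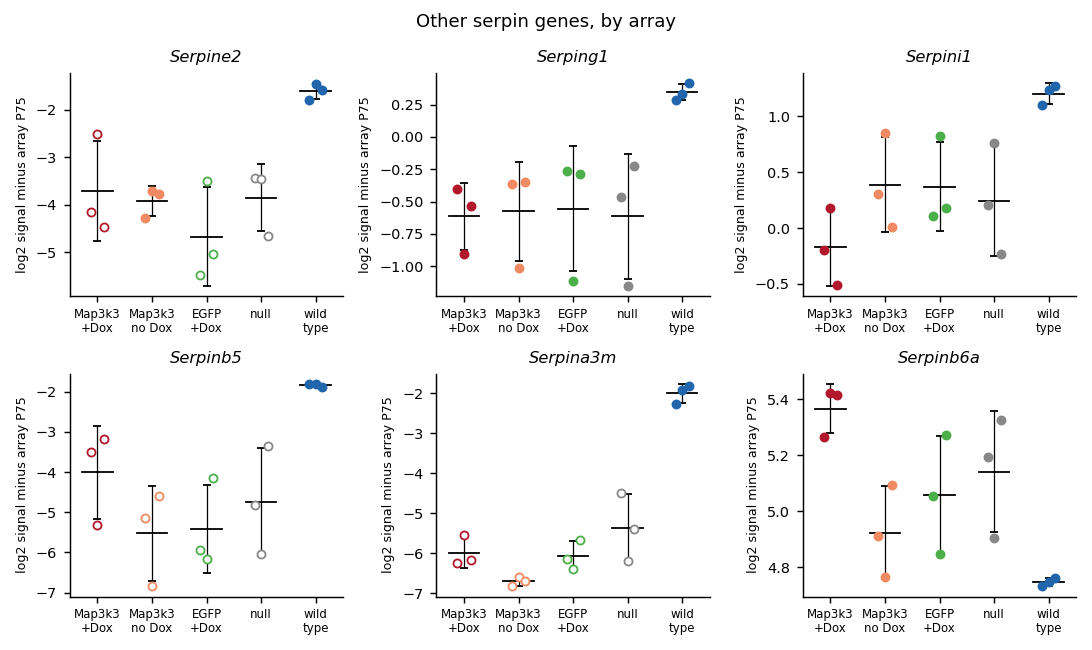
Further serpin genes by array. Points, lines, bars and open points are as in the plot of genes called in Map3k3 cells with Dox, and the y axis is log2 signal minus the array's 75th percentile. Wild-type arrays lie above those of the other 4 groups for Serpine2, Serping1, Serpini1, Serpinb5 and Serpina3m and at the low end for Serpinb6a.

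Serpina3c, Serpina3m, Serpinb6b and Serpinb9, all of which fell, were well above background on wild-type arrays only, and so were tested only because they were high there. Serpina3m, one of the antichymotrypsin-like copies, had -4.50, -6.20 and -5.39 in null cells, against -2.28, -1.92 and -1.82 in wild-type cells. It fell at least 3.98-fold (log2 difference -3.36, SE 0.35, limma adjusted p = 5.02e-06). Serpina3c, another of these copies, had -6.17, -6.02 and -6.09 in null cells, against -3.79, -4.06 and -3.47 in wild-type cells, and fell at least 1.16-fold (log2 difference -2.32, limma adjusted p = 1.70e-05). Serpinb6b had -6.09, -5.92 and -5.99 in null cells, against -3.07, -3.50 and -3.09 in wild-type cells, and fell at least 1.71-fold (log2 difference -2.78, adjusted p = 2.41e-05). Serpinb9 had -6.18, -6.01 and -5.98 in null cells, against -3.92, -4.12 and -3.38 in wild-type cells, and fell at least 1.14-fold (log2 difference -2.25, adjusted p = 2.74e-05). For these 4 genes the wild-type arrays stood clear of all null arrays. Their wild-type signal was itself dim, so the bounds are small beside the log2 differences.

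Serpinb5 had log2 signals of -4.82, -6.03 and -3.36 in null cells, against -1.82, -1.81 and -1.88 in wild-type cells. It passed the filter through its wild-type arrays alone, which favours a lower call. It fell at least 3.86-fold (log2 difference -2.90, SE 0.80, limma adjusted p = 0.00759), with a null spread far wider than the wild-type one. With the array row as a block this was -1.58 (adjusted p = 0.261). Serpina1f, a copy in the alpha-1-antitrypsin group, was the single serpin that rose, with -3.04, -3.38 and -2.96 in null cells, against -3.52, -3.25 and -4.57 in wild-type cells. Its arrays overlapped, the rise of at least 1.57-fold rested on wild-type replicate 3 (log2 difference 0.65, limma adjusted p = 0.0420), without which it was 0.25 (adjusted p = 0.115), and the call ended in 11 of 18 alternative settings.

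Fibroblast and feeder markers moved with these falls. Their summed signal was 6.52 to 6.82 times the 75th percentile in null cells, against 95.7 to 101 in wild-type cells. In null cells Col1a2, Pdgfra, Dcn, Lum and Acta2 were on no array above background, and in wild-type cells Pdgfra, Postn and Lum were not. Of the 9 tested, 8 fell, and of all tested genes 20.5% were called lower and 17.2% higher. Col1a2, Dcn and Acta2 had passed the filter through wild-type arrays alone, which favours a lower call. Trophoblast markers summed to 12.3 to 27.5 in null cells, against 186 to 192 in wild-type cells, and 8 of 10 tested fell. Endoderm markers summed to 164 to 175 in null cells, against 197 to 246 in wild-type cells, and 7 of 12 tested fell while 2 rose. Dab2 and Thbd among them had also passed the filter through wild-type arrays alone. The part of these cell types in the serpin differences was not tested.

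Set against wild-type cells, Map3k3 cells with Dox had 3 serpins higher and 11 lower, 14 of 27 (51.9%), where 38.2% of all tested genes were called, 18.3% higher and 19.9% lower. The 7 serpins that passed the filter through wild-type arrays alone were all among the 11, and of the other 20, 4 were lower and 3 higher. The median log2 difference was -0.15 for the serpins and -0.01 for all genes, and the arrays were fully separate in 17 serpins (63%), beside 70.7% of all genes. This comparison shares its wild-type arrays with the comparison of null cells. Among the higher genes were Serpinc1, as above, and Serpinb6a. Lower were Serpina3c, Serpina3i, Serpina3m, Serpinb5, Serpinb6b, Serpinb9, Serpinb9f, Serpine2, Serpinf1, Serping1 and Serpini1. Serpinb6a, an intracellular protease inhibitor, had 5.26, 5.42 and 5.41 in Map3k3 cells with Dox, against 4.73, 4.75 and 4.76 in wild-type cells, and rose 1.54-fold (log2 difference 0.62, limma adjusted p = 0.00106). Against cells without Dox, which had 4.91, 4.77 and 5.09, Serpinb6a was 0.44 higher on the log2 scale (adjusted p = 0.0156), under the 1.5-fold minimum.

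Most of the genes lower than in wild-type cells were dim in Map3k3 cells with Dox. Serpina3m was at least 3.74-fold lower (log2 difference -3.99), Serpinb5 at least 2.79-fold (-2.17), Serpinb6b at least 1.61-fold (-1.40) and Serpina3i at least 1.58-fold (-2.33). Serpina3c was at least 1.1-fold lower (-2.21), Serpinb9 at least 1.07-fold (-1.50) and Serpinb9f, a copy near Serpinb9, at least 1.02-fold (-1.90). Serpinb9f had -6.15, -5.29 and -5.92 in Map3k3 cells with Dox, -4.10, -5.17 and -6.03 in null cells and -3.92, -3.79 and -3.95 in wild-type cells, and its null difference was not called (log2 difference -1.22, limma adjusted p = 0.0535). Map3k3 and wild-type arrays lay on different slides, linked only by EGFP cells. With the slide as a block 7 of the 27 serpins were called in place of 14, a drop that is not set beside that of all genes here. With normexp background correction Serpinb6b (-0.46), Serpinb9 (-0.29) and Serpinb9f (-0.48) fell short of the fold minimum. With the slide as a block Serpina3i differed by -0.89 (adjusted p = 0.371) and Serpinb5 by -0.27 (adjusted p = 0.898). The Serpinb5 call also ended without Map3k3 Dox replicate 2 (-1.51, adjusted p = 0.138) and without wild-type replicate 1, 2 or 3.

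Neither control comparison called a serpin. In EGFP cells against null cells 0 of 27 serpins were called, where limma called 0.00692% of all genes (1 of 14441). An unadjusted p under 0.05 was found for 1 of the 27, beside 1044 of all 14441 genes. In Map3k3 cells without Dox against null cells 0 of 27 were called, where 0% of all genes were called. Again 1 of the 27 had an unadjusted p under 0.05, beside 2083 of all 14441 genes. The serpins with those p-values were Serpina3i, at 1.51 on the log2 scale in EGFP minus null cells (limma adjusted p = 0.482), and Serpina3m, at -1.34 in cells without Dox minus null cells (limma adjusted p = 0.165). Serpinh1 differed by -0.16 and -0.01 in these comparisons. Arrays were fully separate in 3 serpins (11.1%) in each comparison, beside 11.6% of all genes for EGFP cells and 21.0% for Map3k3 cells without Dox. Every alternative setting run also called 0 serpins in both.

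**Figure D4:**
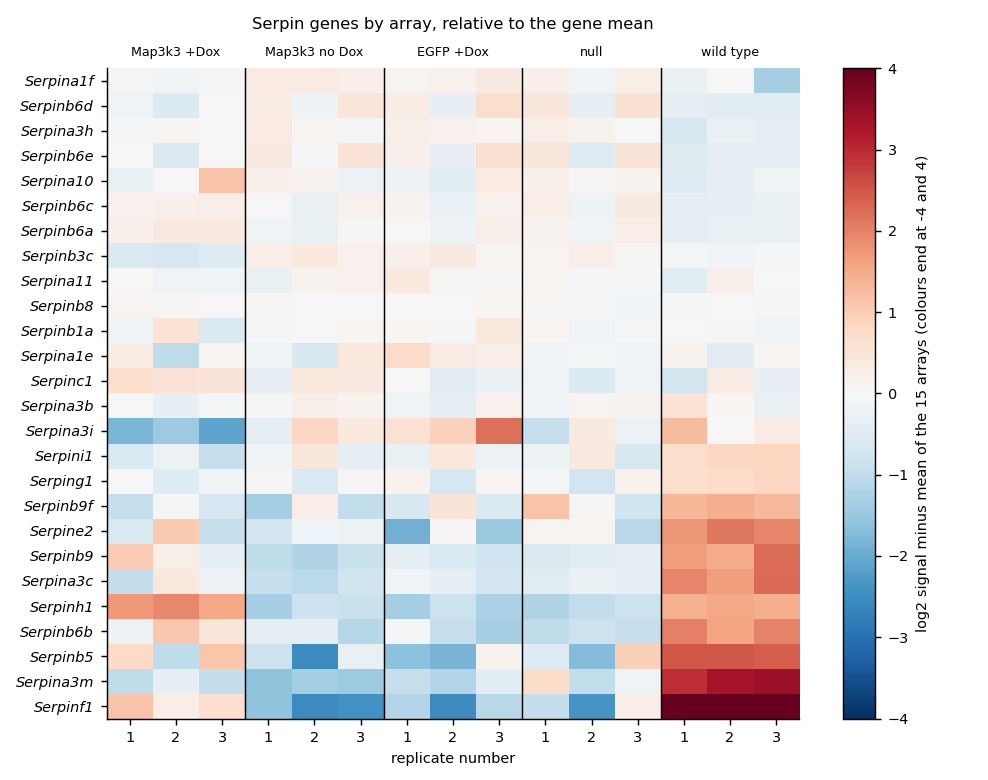
Log2 signal of tested serpin genes on each of the 15 arrays, relative to each gene's mean over the arrays. Rows are ordered by the log2 difference between null and wild-type cells, columns are replicates 1 to 3 of each group, and colours end at -4 and 4. Map3k3 cells with Dox share the high colours of wild-type cells for Serpinh1, and Serpinf1, Serpina3m and Serpinb5 are highest in wild-type cells.

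The other tested serpins were called in none of the 6 comparisons. Serpinb8, which inhibits furin in humans, kept between 4.99 and 5.22 on the log2 scale over the 15 arrays, and Serpinb6c, a copy of Serpinb6a, between 4.61 and 5.36. Serpinb1a, an inhibitor of neutrophil elastase and cathepsin G, ranged from -1.20 to -0.07, Serpinb6d from 0.10 to 1.34 and Serpinb6e from -2.76 to -1.61. Among the A genes Serpina3h ranged from -1.90 to -0.93, Serpina3b from -2.97 to -2.03 and Serpina11 from -3.21 to -2.37. Serpina10, which inhibits factor Xa together with protein Z, ranged from -4.32 to -2.66, and Serpina1e, an alpha-1-antitrypsin copy, from -4.94 to -3.16. Serpina3h was 0.57 higher in null than in wild-type cells (limma adjusted p = 8.00e-04), close to but under the fold minimum.

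The 33 genes that did not pass were seldom above background. Of them, 22 were well above background on no array: Serpina12, Serpina1c, Serpina3j, Serpina3k, Serpina3n, Serpina4-ps1, Serpina6, Serpina7, Serpinb10, Serpinb11, Serpinb12, Serpinb13, Serpinb1b, Serpinb1c, Serpinb2, Serpinb3b, Serpinb7, Serpinb9d, Serpinb9g, Serpind1, Serpinf2 and Serpini2. They include the plasmin inhibitor Serpinf2, the thrombin inhibitor Serpind1 and the corticosteroid carrier Serpina6. The other 11 were above background on 1 to 3 arrays, at most 2 of a group. These were Serpina1a (3 arrays), Serpina3f, Serpina9 and Serpinb9e (2 arrays each), and Serpina1d, Serpina3a, Serpina5, Serpinb3a, Serpinb3d, Serpinb9b and Serpinb9c (1 array each).

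Genes that serpins act with were read from lists of 21 genes of the plasminogen and coagulation systems, 20 other proteases, 16 inhibitors of other families and 20 genes of collagen maturation. Some of those named below passed the filter through a single group, which favours calls that put that group higher. For Plau and Tmprss2 it was Map3k3 cells with Dox, and for Vtn those without Dox. For Plat, Thbd, Reck and Adamts2 it was wild-type cells. The list counts were not split by this. In the plasminogen and coagulation list, 7 of 15 tested rose and 3 fell in Map3k3 cells with Dox against those without, with a median log2 difference of 1.05 beside -0.07 for all genes, of which 12.3% were called higher and 5.58% lower. The urokinase gene Plau averaged -1.57 with Dox and -6.58 without, and rose at least 7.99-fold (log2 difference 5.01, limma adjusted p = 5.41e-07). Anxa2, a cell surface binder of plasminogen and its activator, rose 8.50-fold, the protein C receptor gene Procr 6.58-fold and the tissue factor gene F3 5.69-fold. Those that fell were the prothrombin gene F2, at least 1.55-fold, Lrp1, a receptor that clears serpin complexes, 1.51-fold, and Vtn, vitronectin, an adhesion protein of plasma and matrix, which was too dim for a fold. Against EGFP cells 7 rose and 2 fell, beside 12.4% of all genes called higher and 5.64% lower, with Plau at least 5.83-fold and Anxa2 8.58-fold higher.

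In null against wild-type cells 6 of the 15 rose and 5 fell, with a median log2 difference of -0.29 beside 0.07 for all genes, of which 17.2% were called higher and 20.5% lower. Lrp1 rose 5.48-fold, the thrombin receptor gene F2r 3.23-fold, Tfpi, the tissue factor pathway inhibitor, 2.94-fold and the protease-activated receptor gene F2rl1 2.53-fold. F3 fell 7.08-fold, F2 at least 4.05-fold, the thrombomodulin gene Thbd at least 2.24-fold and Plat, tissue plasminogen activator, at least 2.19-fold. Thbd is also on the endoderm marker list. F3 averaged 2.81 in Map3k3 cells with Dox, 0.30 without Dox, 0.01 in EGFP cells, 0.33 in null cells and 3.15 in wild-type cells. Plau averaged -1.57 in Map3k3 cells with Dox and -5.71 in wild-type cells, where it was near background, and was at least 8.19-fold higher in Map3k3 cells with Dox. In Map3k3 cells with Dox against wild-type cells 9 of the 15 rose and 2 fell, beside 18.3% of all genes called higher and 19.9% lower. The list's median log2 difference there was 1.62, beside -0.01 for all genes.

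Of the other proteases 11 were tested, and 7 rose and 1 fell in Map3k3 cells with Dox against those without, beside 12.3% of all genes called higher and 5.58% lower. The list's median log2 difference was 1.21, beside -0.07 for all genes. Tmprss2, a membrane serine protease, rose at least 15.8-fold, the prostasin gene Prss8 4.52-fold, Casp8, caspase 8, 3.71-fold and the cathepsin L gene Ctsl 3.09-fold, while the kallikrein gene Klk1 fell 3.84-fold. The same counts were found against EGFP cells, beside 12.4% of all genes called higher and 5.64% lower. Against them Tmprss2 rose at least 16.1-fold and Klk1 fell 3.91-fold. In null against wild-type cells 3 rose and 4 fell, with a median of 0.31 beside 0.07 for all genes, of which 17.2% were called higher and 20.5% lower. These were led by Htra1, a secreted serine protease, 8.46-fold higher, and by the hepsin gene Hpn, 4.20-fold lower.

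Inhibitors of other families moved both ways. Of 12 tested, 3 rose and 4 fell in Map3k3 cells with Dox against those without. Cst6, a secreted cystatin, rose 4.00-fold, Wfdc2 2.22-fold and the cystatin B gene Cstb 1.55-fold. The trypsin inhibitor gene Spink1 fell 4.54-fold, A2m, alpha-2-macroglobulin, at least 3.69-fold, Pzp, a relative of it, 2.35-fold and Wfdc1 1.62-fold. The median log2 difference was 0.03, beside -0.07 for all genes, of which 12.3% were called higher and 5.58% lower. In null against wild-type cells 4 rose and 3 fell, with a median of -0.09 beside 0.07 for all genes, of which 17.2% were called higher and 20.5% lower. A2m rose at least 2.97-fold (log2 difference 1.82) and Spint1, an inhibitor of hepsin and matriptase, 3.11-fold (1.64). Reck, a membrane-bound inhibitor of matrix metalloproteinases, fell at least 3.16-fold (log2 difference -2.53) and Spink2 5.51-fold (-2.46).

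**Figure D5:**
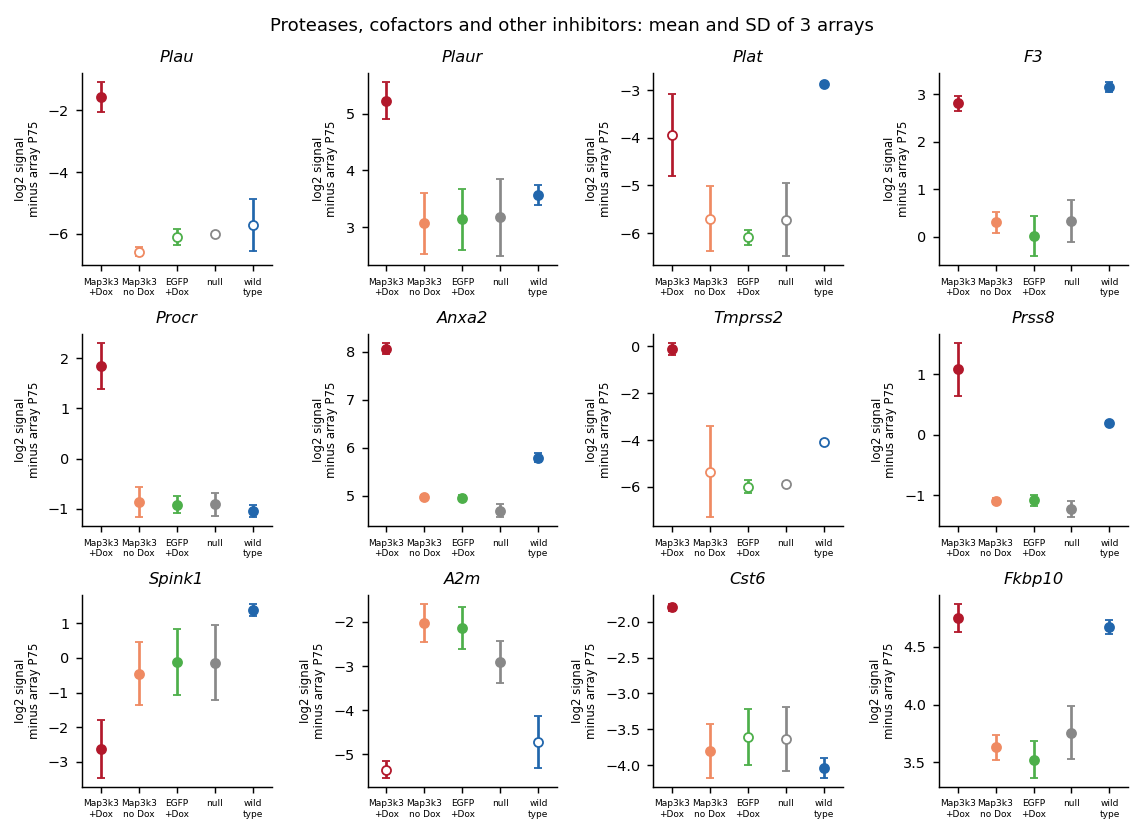
Proteases, cofactors and other inhibitors in the 5 groups. Points and bars are the mean and SD of 3 arrays (y axis: log2 signal minus the array's 75th percentile), and open points mark groups not well above background on all 3 arrays. Plau, Procr, Tmprss2 and Cst6 are high in Map3k3 cells with Dox alone, while F3 and Fkbp10 are high in wild-type cells as well.

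The collagen list, in which Serpinh1 is not counted, had few calls in Map3k3 cells with Dox. Of 18 tested, only Fkbp10, a collagen-folding isomerase that works with Serpinh1, rose against cells without Dox (2.18-fold, log2 difference 1.12, limma adjusted p = 1.77e-05), and 17 were not called. The median was 0.12 on the log2 scale, beside -0.07 for all genes, of which 12.3% were called higher. Against EGFP cells Fkbp10 rose 2.34-fold and the prolyl hydroxylase gene P4ha2 1.52-fold, and Adamts2, which trims procollagen, was called higher but too dim for a fold. In null against wild-type cells 4 rose and 5 fell, with a median of 0.19 beside 0.07 for all genes, of which 17.2% were called higher and 20.5% lower. Pcolce rose 2.23-fold, Crtap 2.06-fold, Fkbp14 1.99-fold and Colgalt1 1.70-fold. P3h3 fell 2.96-fold, P4ha2 2.72-fold, Adamts2 at least 2.28-fold and Fkbp10 1.88-fold. None of the 4 lists had a called gene in EGFP or uninduced Map3k3 cells against null cells.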

How the data were processed

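Each array was scanned by the authors and read with Agilent Feature Extraction 11.5.1.1 under protocol GE1_1105_Oct12, per the file headers. The value used was the processed signal, an intensity in arbitrary units that this software had already corrected for background in the deposited files. The authors' own normalized log2 values were also deposited in a table of the whole series. On each array their correlation with the values computed here was 1 (largest difference 0.00704), and that table served as an alternative. Arrays of a group correlated at 0.985 to 0.998 over genes, and no spot was saturated.

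Spots of a probe were averaged on the log2 scale without outlier spots, and the 75th percentile of the array was subtracted. Symbols came from RefSeq accessions, which named 28331 of 55681 probes. The brightest passing probe stood for its gene, since 15 serpin genes had more than 1 probe. A model with 5 group means was fitted over 15 arrays with limma 3.58.1 in R 4.3.3 (10 residual degrees of freedom, two-sided moderated tests, Benjamini-Hochberg over 14441 genes), after a test on simulated data. Alternatives changed background correction, scaling, filter, probe choice, fold minimum, arrays, slide, row, replicate block and replicates. The number of arrays limits the precision.

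Replicate numbers were taken to pair arrays where deviations from the group means correlated above 0.1 for each number. For Map3k3 cells with against without Dox these correlations were 0.154, 0.318 and 0.252, and against EGFP cells 0.101, 0.316 and 0.193. For EGFP against null cells they were 0.251, 0.561 and 0.383, and for Map3k3 cells without Dox against null cells 0.270, 0.617 and 0.411. No such pairing was found with wild-type cells.

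Serpins called in any comparison are named with values, other tested serpins with ranges, and the rest by symbol. One member is counted in the totals but not reported here on its own. Of the other lists, at most 4 called genes per direction and comparison were named by size of log2 difference. The members, lists and comparisons were chosen with earlier results of these data known. The genes Serpina16, Serpina1b, Serpina3g, Serpinb9h and Serpine3 were not analysed here.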

Additional observations from a re-analysis of the deposited data

How the results depend on the processing

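Of 41 called serpin results 17 stayed called under every alternative in which their gene was tested, and no result reversed its direction. Among the 17 were Serpinh1 with Map3k3 against both null-background controls and in null against wild-type cells, each in 19 alternatives. Others of the 17, such as those of Serpina3c, Serpina3m and Serpinf1, had 18 alternatives. Their genes were not tested with only probes above background on all 15 arrays. With only probes above background on all 15 arrays, 4 serpins were called in null against wild-type cells, 2 in Map3k3 cells with against without Dox, 2 against EGFP cells and 4 against wild-type cells, since fewer serpins could be tested. Normexp background correction was run on spot medians, chosen after the files were seen, because they held no spot means as planned. It called 4 in Map3k3 cells with against without Dox and also 4 relative to EGFP cells. The fall of Serpinb9 in null cells was then -0.28. A 2-fold minimum or the slide as a block called 5 against EGFP cells. Against wild-type cells the slide as a block called 7 of the 27 tested serpins. No filter on background called 27 there, out of all 60 serpin genes, of which 33 had not passed the filter. Leaving out each replicate in turn gave 11 to 15 calls for null against wild-type cells, 6 to 8 with against without Dox, 5 to 8 against EGFP cells, 11 to 15 for Map3k3 with Dox against wild-type cells and 0 in the other comparisons. Over all genes the first 4 of these had 5259 to 5452, 2388 to 2627, 2435 to 2616 and 5299 to 5487 calls. Without EGFP replicate 3 the serpin count against EGFP cells was 5. Apart from the fold minima below, counts over all genes are not given for the other settings. Those serpin counts alone do not set serpins apart from other genes.

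With the replicate block the serpin counts were 13 for null against wild-type cells, 8 with against without Dox, 9 against EGFP cells, 14 against wild-type cells and 0 in the others. Counts over all genes are not given for this block, so these counts do not set serpins apart from other genes. In null against wild-type cells, where numbers did not pair arrays, Serpinb6d (adjusted p = 0.00617) and Serpinb9f (adjusted p = 0.0319) were gained and Serpina1f (adjusted p = 0.0519) was lost. Beside the Serpinb5 calls already given, the block changed no other call. Over all genes, no fold minimum gave 9092 calls in null against wild-type cells in place of 5449, 5751 with against without Dox in place of 2578, 5973 against EGFP cells in place of 2602, and 8903 against wild-type cells in place of 5517. A 2-fold minimum gave 3280, 1503, 1488 and 3234. With each passing probe tested on its own, 15 of 31 serpin probes were called in null against wild-type cells and 8 with against without Dox. Of all 29778 passing probes, 9919 and 4683 were called in these comparisons. Signals near background limit the dim genes, whose folds are bounds.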
